A study of Mus musculus with 11 samples.

Results

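At E14, 174 of the 5253 cells of the cochlear duct held Fgf20 transcripts and none of Fgfr3, Prox1, Atoh1 or Bmp4, and these Fgf20-gated cells are described here. They were chosen by their own deposited values (Fgf20 above 0, the other 4 genes at 0 and Oc90 under 2.5 on the natural log scale), so those 6 genes are given as a description and were not tested. The libraries came from the cochlear epithelium of wild-type CD1 mice at E14 (2 libraries), E16 (3), P1 (4) and P7 (2), isolated with thermolysin and DNAse and captured with the 10x droplet method. The labels give papain as the enzyme that dissociated the cells, whereas the study's methods describe trypsin. Every library pooled the cochleae of a single litter, and no genotype, allele or treatment differed among them. At E14, 72 of the 2198 cells of replicate 1 passed the gate, a share of 3.28% (95% exact binomial interval 2.57 to 4.11), and 102 of the 3055 cells of replicate 2, or 3.34% (2.73 to 4.04). All intervals of this kind cover counting error only. The whole series held 30634 cells.

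Fgf20 encodes a fibroblast growth factor that is secreted in the developing cochlea, signals through Fgfr1 and is known to be needed for the outer part of the organ of Corti to form. The prosensory domain is the strip of Sox2-positive cells that gives rise to hair cells and supporting cells. Its cells leave the cell cycle, marked by the cyclin-dependent kinase inhibitor Cdkn1b, before the first hair cells switch on the transcription factor Atoh1. Medial to the domain lies Kölliker's organ, and its lateral side is marked by Fgfr3, an FGF receptor, and by the homeodomain factor Prox1. Ntf3 encodes neurotrophin 3, a survival factor for spiral ganglion neurons, Socs2 a feedback inhibitor of cytokine signalling, and Cyp26b1 an enzyme that degrades retinoic acid.

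The Fgf20-gated cells were set against 3 other classes of E14 cells. The comparison cells (1928 and 2759 in replicates 1 and 2) had no Fgf20, Fgfr3, Prox1 or Atoh1 transcript and so were mostly the rest of the duct. The Fgfr3/Prox1 cells (76 and 81) held Fgfr3 or Prox1 and no Fgf20 or Atoh1, and the Atoh1 cells (55 and 61) held Atoh1 whatever their Fgf20, Fgfr3 or Prox1 values, both with the same limits on Bmp4 and Oc90. Median UMIs per cell were 3595 and 3974.5 in the Fgf20-gated cells, 3411 and 3243 in the comparison cells, 3713.5 and 3248 in the Fgfr3/Prox1 cells, and 4838 and 4600 in the Atoh1 cells. A value of 0 at this depth says that no transcript was caught, not that a cell lacked the RNA. The E14 libraries shared 11 cell barcodes, and no barcode belonged to a gated cell in both. Levels are given as CPM, the mean over the cells of a class of each gene's share of that cell's UMIs scaled to a total of 1000000, and they are not corrected for transcript length.

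Among all E14 cells, 105 (4.78%) and 133 (4.35%) held Fgf20, and 64 of these 238 cells were left out of the gate. Of the 64, 28 held Fgfr3, 17 Prox1, 32 Atoh1 and 8 Bmp4, and 1 was over the Oc90 limit, with some cells counted more than once. Detection in the gated cells was sparse. In replicate 1, 44 cells held 1 Fgf20 UMI, 12 held 2 and 16 held 3 or more, with at most 9. In replicate 2 the numbers were 57, 16 and 29, with at most 13. Their Fgf20 values ran from 0.433 to 3.28 with a median of 1.56 on the natural log scale, and the class means were 447 and 557 CPM. The highest Oc90 value inside the gate was 2.13 and the lowest left outside it was 5.15. Oc90, an otoconial protein gene of the cochlear roof, was still seen in 58 gated cells. In the E14 cells high in Oc90, which should lack Fgf20, 0 of 345 (3 cells would be 0.870%) and 1 of 572 cells (0.175%) held an Fgf20 UMI.

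The working name of these cells, medial prosensory, rests on Fgf20, Ntf3, Socs2 and Cyp26b1, and it was checked against the other classes. Ntf3 stood at 431 and 362 CPM in the Fgf20-gated cells of replicates 1 and 2, at 82.2 and 87.6 CPM in the comparison cells, at 328 and 364 CPM in the Fgfr3/Prox1 cells, and at 375 and 397 CPM in the Atoh1 cells. Socs2 stood at 1235 and 1068 CPM in the gated cells, at 256 and 260.4 CPM in the comparison cells, at 1285 and 1309 CPM in the Fgfr3/Prox1 cells, and at 1811 and 1564 CPM in the Atoh1 cells. Both genes thus separated the gated cells from the rest of the duct in either library. Neither difference from the other sensory classes passed in the reported fit, with Socs2 somewhat higher there in both libraries and Ntf3 lower there in replicate 1 and alike or higher in replicate 2. By weighted counts Socs2 was lower in the gated cells than in the Atoh1 cells. Cyp26b1 was at 159 and 167 CPM in the gated cells, against 21.3 and 21.4 CPM in the comparison cells, 67.5 and 73.9 CPM in the Fgfr3/Prox1 cells, and 131 and 111 CPM in the Atoh1 cells. It was higher in the gated cells than in any other class of either library, but its difference from the Fgfr3/Prox1 cells did not pass the test (log2 1.10, SE 0.44, adjusted p = 1). By weighted counts, which are explained below and leave out a gene's own spread, it passed. At E16 the Cyp26b1 difference from the Fgfr3/Prox1 cells was -0.18. As class means the markers stood above the comparison cells, and in the reported fit they did not separate the gated from the Fgfr3/Prox1 cells. Within the gated cells the markers were uneven, as the values by cluster given further on show. Position in the duct was not measured, so the cells are called Fgf20-gated cells throughout.

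Single-cell counts of the 3 markers gave the same picture. In replicates 1 and 2, 86.1% and 93.1% of the Fgf20-gated cells held at least 1 of Ntf3, Socs2 and Cyp26b1, and 69.4% and 71.6% held at least 2, against 13.6% and 13.9% of the comparison cells. The share with at least 2 was 63.2% and 63.0% in the Fgfr3/Prox1 cells and 76.4% and 78.7% in the Atoh1 cells. All 3 markers were caught in 21 and 30 of the gated cells. With every cell thinned to 1500 UMIs, so that depth was equal, Socs2 was caught in 65.3% and 68.6% of the gated cells and in 22.0% and 24.0% of the comparison cells. Ntf3 was caught in 37.5% and 32.4% against 9.60% and 9.89%, and Cyp26b1 in 19.4% and 20.6% against 3.16% and 2.83%.

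Against the comparison cells, 10 genes were higher and 9 lower in the Fgf20-gated cells of both E14 libraries by the limma test (adjusted p under 0.05), of 8918 genes tested, or 0.112% and 0.101% of them. The test set class means per library against each other within library, over the 2 E14 and 3 E16 libraries. Its p-values rest on the spread of that difference between libraries of both ages, with 3 residual degrees of freedom. That spread mixes differences between pooled litters with the sampling of few cells, and the E14 libraries alone do not set it. The 10 higher genes covered a tectorial membrane gene (Tectb), transcription factors (Sox2, Isl1, Nr2f1), signalling genes (Socs2, Ntf3, Igfbp3) and calcium or protein-handling genes (S100a1, Anxa5, Skp1a). The 9 lower genes were Meg3, Calml4, Cnmd, Ptn, Mia, Lum, Lgals1, Mdk and Tmsb4x. Weighting each library by how close its profiles lay to the fit, a choice made after seeing the data because a single E16 library had only 9 gated cells, called 313 genes higher (3.51%) and 365 lower (4.09%), with the same E14 fold changes and with the spread shared over all genes. A gene's own spread thus had no part in that fit, and 634 genes still passed under it without the E16 library of 9 gated cells. Counts under that fit are called weighted counts and are less cautious than the reported fit.

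**Figure D1:**
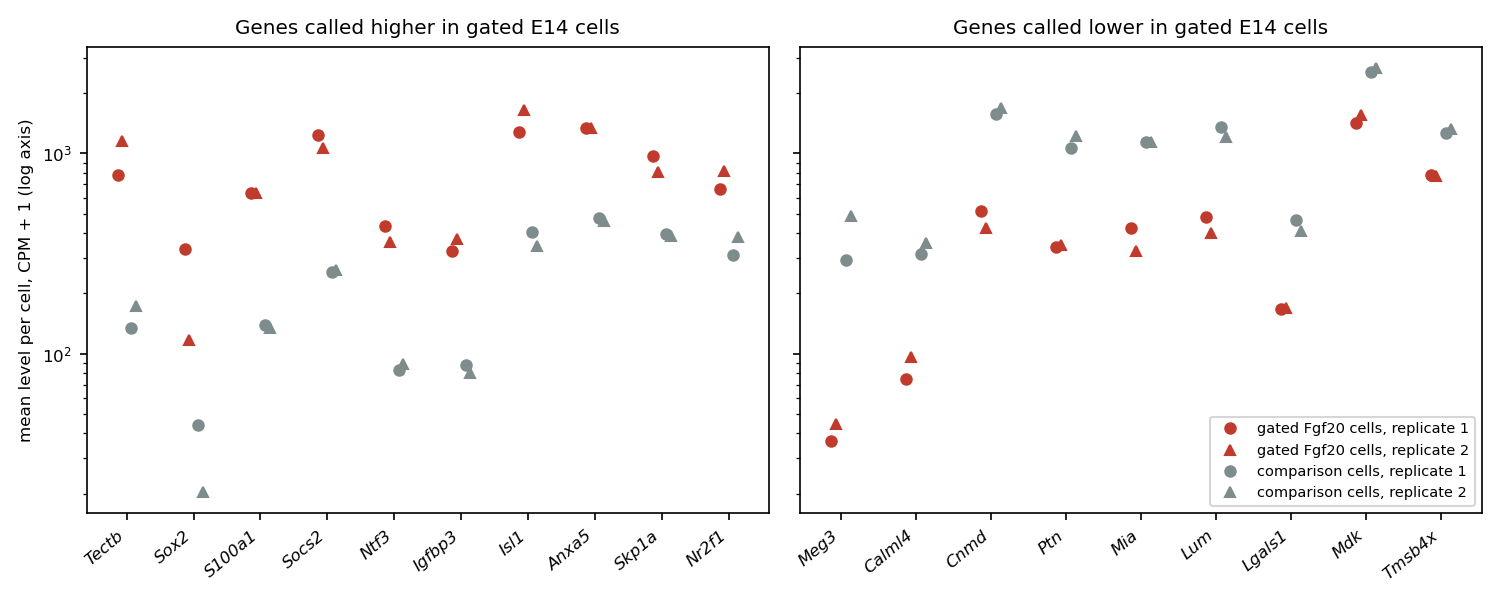
Mean levels (CPM + 1, log axis) of the 19 genes that differed between Fgf20-gated and comparison cells at E14, 1 point per class and library. These 19 genes were picked by the test from the same values. Among the 10 higher genes Tectb and Sox2 show the widest gaps.

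Tectb, which encodes β-tectorin of the tectorial membrane, showed the largest rise on the log2(CPM + 10) scale used for all differences here. It stood at 775 and 1149 CPM in the gated cells of replicates 1 and 2 and at 133 and 172 CPM in the comparison cells (log2 2.56, SE 0.24, adjusted p = 0.00114). The gated cells were well above the comparison cells in each library. At 1500 UMIs Tectb was caught in 45.8% and 58.8% of gated cells and in 10.7% and 12.1% of comparison cells. Of the 14 genes of the tectorial membrane list, 12 were tested with a median log2 difference of -0.48. Tectb alone passed in the reported fit, and 3 were higher and 8 lower by weighted counts, beside 3.51% and 4.09% of all genes. Tectb lies on chromosome 19 at 55180733 to 55196313 on the plus strand (GRCm38, GENCODE vM21).

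Sox2, the transcription factor that marks the prosensory domain, stood at 332 and 116 CPM in the gated cells and at 43.0 and 19.3 CPM in the comparison cells (log2 2.40, SE 0.38, adjusted p = 0.0302). Replicate 2 was lower than replicate 1 in both classes, and the gated cells were higher than the comparison cells in each. At 1500 UMIs it was caught in 38.9% and 9.80% of gated cells and in 5.71% and 2.39% of comparison cells. Sox2 lies on chromosome 3 at 34650405 to 34652461 on the plus strand. When the comparison cells were put under the same Bmp4 and Oc90 limits as the gated cells, the Sox2 difference was 2.02 (adjusted p = 0.0657) and that of Ntf3 was 1.73 (adjusted p = 0.117), so neither passed.

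Among the genes past the threshold, Tectb and Sox2 had the largest rises, and the stretches from 250 bases before to 50 bases after their annotated starts (RefSeq, GRCm38.p6, plus strand) are shown because SOX proteins bind a short core motif. Windows were searched on both strands for the core letters CATTGT and CTTTGT, and matches are in capitals.
Tectb chr19:55180476-55180775: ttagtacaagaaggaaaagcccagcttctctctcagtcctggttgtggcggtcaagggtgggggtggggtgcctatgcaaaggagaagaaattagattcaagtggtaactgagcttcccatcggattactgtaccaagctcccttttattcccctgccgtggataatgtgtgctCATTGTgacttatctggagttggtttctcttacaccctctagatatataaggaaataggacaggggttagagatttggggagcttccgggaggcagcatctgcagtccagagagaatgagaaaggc
Sox2 chr3:34649745-34650044: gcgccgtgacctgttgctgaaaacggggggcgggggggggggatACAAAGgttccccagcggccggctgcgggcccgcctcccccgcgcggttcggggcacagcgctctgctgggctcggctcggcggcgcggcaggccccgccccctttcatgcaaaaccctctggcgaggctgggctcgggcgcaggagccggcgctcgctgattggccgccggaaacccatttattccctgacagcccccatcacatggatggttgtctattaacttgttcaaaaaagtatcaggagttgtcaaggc
The match lay 76 bases before the RefSeq start in Tectb and 206 bases before it in Sox2. The 2 annotations differ for Sox2, whose window ends at 34650044, before the GENCODE start of 34650405 given above. Of the 10 higher genes and Cyp26b1, 9 had a window in the table (11 windows in all), and 3 of those windows held the letters, the third being Nr2f1 with a match 151 bases before its start. Over all 32851 windows of this length, 28.6% held them, so a match in 3 of 11 is a description and no more.

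The other higher genes rose by less than Tectb and Sox2. S100a1, a calcium-binding protein gene, was at 631 and 632 CPM in the gated cells and at 138 and 133 CPM in the comparison cells (log2 2.14, SE 0.21, adjusted p = 0.00114). For Socs2, whose levels are given above, the difference was 2.11 (SE 0.21, adjusted p = 0.00114). Ntf3 differed by 2.09 (SE 0.36, adjusted p = 0.0461). Of these 3, Ntf3 lay closest to the threshold. Igfbp3, which binds insulin-like growth factors, was at 323 and 374 CPM against 86.7 and 79.4 CPM (log2 1.94, SE 0.29, adjusted p = 0.0233). Isl1, a LIM homeodomain factor of the sensory lineage, was at 1277 and 1652 CPM against 405 and 345 CPM (log2 1.93, SE 0.21, adjusted p = 0.00225). Anxa5, a calcium-dependent phospholipid-binding protein gene, was at 1335 and 1334 CPM against 472 and 460.4 CPM (log2 1.50, SE 0.16, adjusted p = 0.00225). Its levels hardly differed between libraries in either class. Skp1a, a subunit of a ubiquitin ligase, was at 969 and 803 CPM against 396 and 385 CPM (log2 1.16, SE 0.17, adjusted p = 0.0233). Nr2f1, an orphan nuclear receptor gene, was at 665 and 816 CPM against 311 and 381 CPM (log2 1.08, SE 0.19, adjusted p = 0.0461).

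The largest fall was in Meg3, an imprinted long non-coding RNA, at 35.6 and 43.7 CPM in the gated cells and at 293 and 484 CPM in the comparison cells (log2 -2.97, SE 0.44, adjusted p = 0.0218). Calml4, a calmodulin-like gene, was at 73.4 and 95.2 CPM against 313 and 358 CPM (log2 -1.88, SE 0.30, adjusted p = 0.0324). Both genes were lower in the gated cells of either library. Cnmd, which encodes chondromodulin, was at 515 and 424 CPM against 1564 and 1677 CPM (log2 -1.77, SE 0.22, adjusted p = 0.00492). Ptn, a heparin-binding growth factor gene listed as an interdental cell marker, was at 339 and 346 CPM against 1059 and 1225 CPM (log2 -1.70, SE 0.23, adjusted p = 0.0123). Mia, a secreted cartilage protein gene, was at 425 and 323 CPM against 1141 and 1142 CPM (log2 -1.60, SE 0.18, adjusted p = 0.00225). Each of these 3 was lower in both libraries by more than either class varied. Lum, the proteoglycan lumican, was at 482 and 398 CPM against 1359 and 1203 CPM (log2 -1.52, SE 0.21, adjusted p = 0.0127). Lgals1 (galectin 1), Mdk (midkine, the relative of Ptn) and Tmsb4x (an actin-sequestering peptide) fell by less, with log2 differences of -1.32, -0.80 and -0.73 and adjusted p-values of 0.0372, 0.0391 and 0.0372.

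With the comparison cells under the same Bmp4 and Oc90 limits, 7 genes were higher and 8 lower. Besides Sox2 and Ntf3, the calls of Igfbp3 (log2 1.47, adjusted p = 0.104), Nr2f1 (0.69, adjusted p = 0.453), Cnmd (-1.23, adjusted p = 0.0562), Meg3 (-1.98, adjusted p = 0.222), Calml4 (-1.20, adjusted p = 0.448) and Lgals1 (-0.42, adjusted p = 1) were lost. Leaving out single libraries moved the counts further. Without E16 replicate 3 no gene passed in either direction, and without E16 replicate 1, whose 9 gated cells held 28338 UMIs, 56 were higher and 61 lower. Without E14 replicate 1 the counts were 6 higher and 11 lower, without E14 replicate 2 they were 5 and 6, and without E16 replicate 2 they were 5 and 4. Without any E16 library, 318 and 301 genes passed. Without the block for library 8 genes passed in all, and without cycling cells the calls of Calml4 and Nr2f1 were lost. Without cells above 3000 genes or 15000 UMIs the calls of Nr2f1 (log2 0.92, adjusted p = 0.186) and Lgals1 (-1.11, adjusted p = 0.108) were lost. Before adjustment, 228 of 8918 genes had p under 0.05, a share below 0.05 itself, so that count is no sign of further differences.

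Sox2 and Isl1 were the 2 of the 10 higher genes that belonged to the prosensory and sensory list. Of its 18 genes 17 were tested, and no other passed, with a median log2 difference of 1.37 beside -0.01 over all genes. By weighted counts the higher genes were Cdkn1b, Eya1, Gata3, Hey1, Hey2, Isl1, Jag1, Lfng, Lgr5, Rorb, Sall3 and Sox2, and the Notch target Hes1 was lower. Over all genes 3.51% and 4.09% were. Some of the list, such as Lfng, may have passed the filter of 10 CPM only through the gated cells, where they are high. No count of weighted calls over the list is therefore given. A gene near 0 in either class could pass the filter through the other, so counts and medians over a list describe the members tested and nothing more. Several well known members missed the reported threshold. Cdkn1b was at 90.5 and 104 CPM in the gated cells against 22.3 and 19.6 CPM (log2 1.79, SE 0.49, adjusted p = 0.443). Lfng, a modulator of Notch, was at 59.8 and 47.0 CPM against 9.26 and 10.7 CPM (log2 1.66, SE 0.46, adjusted p = 0.477). Jag1, a Notch ligand, was at 67.4 and 50.3 CPM against 10.9 and 14.3 CPM, also above the 19.4 and 23.6 CPM of the Fgfr3/Prox1 cells (log2 1.60 against the comparison cells, SE 0.62, adjusted p = 1). Jag1 differed by log2 1.12 from the Fgfr3/Prox1 cells and by 0.36 from the Atoh1 cells, and neither difference passed in the reported fit. At E16 its difference from the Fgfr3/Prox1 cells was -0.04. Lgr5, a receptor for R-spondins, was at 48.1 and 90.8 CPM against 22.2 and 19.4 CPM (log2 1.32, adjusted p = 1). Gata3 was at 502 and 564 CPM against 316 and 267 CPM (log2 0.85, adjusted p = 1). Hes1 was at 568 and 132 CPM against 933 and 433 CPM (log2 -1.17, adjusted p = 0.521).

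FGF pathway genes were counted next. None of the 9 tested of 12 feedback and target genes passed in the reported fit, and 4 were higher by weighted counts (3.51% of all genes were), with a median of 0.60. Etv4, an ETS factor switched on by FGF signals, was at 109 and 74.1 CPM against 16.8 and 13.9 CPM (log2 1.98, adjusted p = 1), and Phlda1 was at 375 and 238 CPM against 133 and 94.2 CPM (log2 1.34, adjusted p = 0.304). In the Fgfr3/Prox1 cells Etv4 was at 67.4 and 66.0 CPM and Phlda1 at 469 and 361 CPM, and neither difference passed there (log2 0.38 and -0.45, adjusted p = 1 for each). Among 7 tested ligands and receptors outside the gate, none passed in the reported fit, and Fgf10 was higher by weighted counts. Fgfr2 was at 2.65 and 0 CPM in the gated cells and at 31.6 and 33.8 CPM in the comparison cells, which alone carried it past the filter, and it is given as a level with no test. Fgf3 likewise, at 8.17 and 21.7 CPM against 1.67 and 1.17 CPM, is given as a level. Fgf10 was at 38.8 and 87.1 CPM against 23.1 and 27.9 CPM, and against 9.94 and 16.3 CPM in the Fgfr3/Prox1 cells. Bdnf, the other neurotrophin gene that moved by weighted counts, was at 59.6 and 80.8 CPM against 13.8 and 11.7 CPM (log2 1.81, adjusted p = 1).

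Markers of the other duct regions differed by list. Over all genes 0.112% were higher and 0.101% lower in the reported fit, and 3.51% and 4.09% by weighted counts. In the interdental list 11 genes passed the filter on low values here and 6 in the comparison with the Atoh1 cells. Some may have passed only through the comparison cells, so no count of calls over that list is given. Its sum was 1472 and 1013 CPM in the gated cells and 4090 and 4199 CPM in the comparison cells. In the Kölliker's organ list of 18 genes none passed in the reported fit, while 5 were higher and 8 lower by weighted counts. Calb1, a calcium buffer gene and a marker of Kölliker's organ, was at 57.9 and 22.1 CPM in the gated cells against 194 and 149 CPM (log2 -1.95, SE 0.42, adjusted p = 0.154). It passed under matched Bmp4 and Oc90 limits (log2 -2.47, adjusted p = 0.0485) and without cycling cells (log2 -2.87, adjusted p = 0.0361). Epyc, a small proteoglycan gene of the same list, was at 266 and 43.8 CPM against 593 and 493 CPM (log2 -2.17, adjusted p = 0.0873). Tecta, the α-tectorin gene of that list, was at 605 and 809 CPM against 429.6 and 437 CPM (log2 0.68, adjusted p = 0.862). The list as a whole summed to 4335 and 5042 CPM in the gated cells and to 5354 and 4757 CPM in the comparison cells, lower in replicate 1 and higher in replicate 2. The cochlear roof list is not counted, since the Oc90 limit of the gate removes roof cells from the gated cells alone and several of its genes passed the filter only through the comparison cells. In the lesser epithelial ridge list, on which the Bmp4 limit bears, 1 of 12 was lower in the reported fit and 4 were higher and 5 lower by weighted counts, and its sum was 8014 and 7145 CPM against 8083 and 6612 CPM. The S phase (18 genes, median -0.18) and G2/M lists (20 genes, median 0.10) held no call in either fit.

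Markers of cells from outside the duct were summed per class. The mesenchyme list of 12 genes came to 1390 and 1383 CPM in the gated cells, with 7 and 5 genes at 0, and to 2630 and 2371 CPM in the comparison cells. Neuron markers came to 72.0 and 98.3 CPM against 50.5 and 66.0 CPM, blood markers to 69.9 and 0 CPM, and all 8 immune markers were at 0 in both gated classes. Hair cell markers came to 1367 and 1137 CPM in the gated cells, with 11 and 7 of 19 at 0, against 463 and 457 CPM. Dissociation stress genes came to 9076 and 5615 CPM against 8744 and 6642 CPM, and mitochondrial genes to 6588 and 9797 CPM against 6646 and 8760 CPM. Lum, whose levels are given above, is itself in the mesenchyme list, so its fall and the difference in that sum are not separate results. It was also high inside the duct, at 1662 and 1650 CPM in the E14 cluster led by Epyc and Calb1 (cluster 4). The mesenchyme sum is thus no count of cells from outside the duct, and the share of such cells was not tested.

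The comparison with the Fgfr3/Prox1 cells asked which genes separated Fgf20-gated cells from the laterally marked cells of the domain. Of 8819 genes 2 were higher and 2 lower, or 0.0227% each way, and 87 (0.987%) and 67 (0.76%) by weighted counts. Anxa5 was at 1335 and 1334 CPM in the gated cells and at 479 and 498 CPM in the Fgfr3/Prox1 cells (log2 1.43, SE 0.17, adjusted p = 0.0037). Those levels of the Fgfr3/Prox1 cells were close to the comparison cells' own. Gjb2, the gap junction gene connexin 26, was at 854 and 936 CPM against 326 and 283 CPM (log2 1.53, SE 0.24, adjusted p = 0.0441), and at 641 and 496 CPM in the comparison cells. Cryab, a small heat shock protein gene, was lower, at 961 and 838 CPM against 2429.5 and 3115 CPM (log2 -1.61, SE 0.15, adjusted p = 0.000386). Fkbp1a, which encodes a prolyl isomerase, was at 519.8 and 546 CPM against 1159 and 1223 CPM (log2 -1.14, SE 0.18, adjusted p = 0.0441). The 4 genes were picked by this same test, so the gap between their levels is no further evidence. At E16 the differences of Anxa5, Gjb2, Cryab and Fkbp1a from the Fgfr3/Prox1 cells were 1.45, 2.60, -1.13 and -1.20. Without E16 replicate 1, 16 genes were higher and 18 lower. Without E16 replicate 2 the counts were 2 and 1, and without E14 replicate 1, E14 replicate 2 or E16 replicate 3 they were 0 and 1 each time. A total of 119 genes had p under 0.05 before adjustment, a share of those tested below 0.05 itself.

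Of the 10 genes higher than in the rest of the duct, Anxa5 alone passed against the Fgfr3/Prox1 cells in the reported fit. By weighted counts Tectb, S100a1, Igfbp3, Isl1 and Nr2f1 were higher too, and Sox2, Socs2, Ntf3 and Skp1a did not pass. Tectb was at 421 and 509 CPM in the Fgfr3/Prox1 cells (log2 1.01, SE 0.19, adjusted p = 0.15), and Sox2 was at 264 and 87.5 CPM (log2 0.34, adjusted p = 1). Socs2 differed by -0.17 (SE 0.16) and Ntf3 by 0.19 (SE 0.31), both with adjusted p = 1. Igfbp3 was at 241 and 151 CPM (log2 0.83, SE 0.27, adjusted p = 1), and Isl1 at 1048 and 964 CPM (log2 0.53, SE 0.20, adjusted p = 1). Tectb, Sox2, Igfbp3 and Isl1 were higher in the gated cells of both libraries, and none of them passed in the reported fit. Ntf3 was higher in replicate 1 alone. At E16 Tectb, Igfbp3, S100a1 and Sox2 differed from the Fgfr3/Prox1 cells by -0.12, -0.53, -0.37 and -0.13, the other direction from E14. There Anxa5, Isl1, Nr2f1, Ntf3, Socs2 and Skp1a differed by 1.45, 0.76, 0.21, 0.59, 0.21 and 0.02. No gene passed the test of the change between ages in this comparison in the reported fit, and 23 did by weighted counts. Of 7 genes that the study had named as lateral prosensory on these samples, so that their direction is not independent evidence, none passed in the reported fit and 3 were lower by weighted counts (0.76% of all genes were). Bmp2, a secreted growth factor gene, was at 19.4 and 9.60 CPM in the gated cells against 102 and 51.1 CPM, and Ngfr, the p75 neurotrophin receptor gene, was at 24.7 and 19.4 CPM against 120 and 61.8 CPM, with log2 differences of -1.79 and -1.60 (adjusted p = 1 for each). Of the 7 lateral genes, 6 were tested against the comparison cells, with a median log2 difference of 1.14. None passed there in the reported fit, and 5 were higher by weighted counts (3.51% of all genes were).

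**Figure D2:**
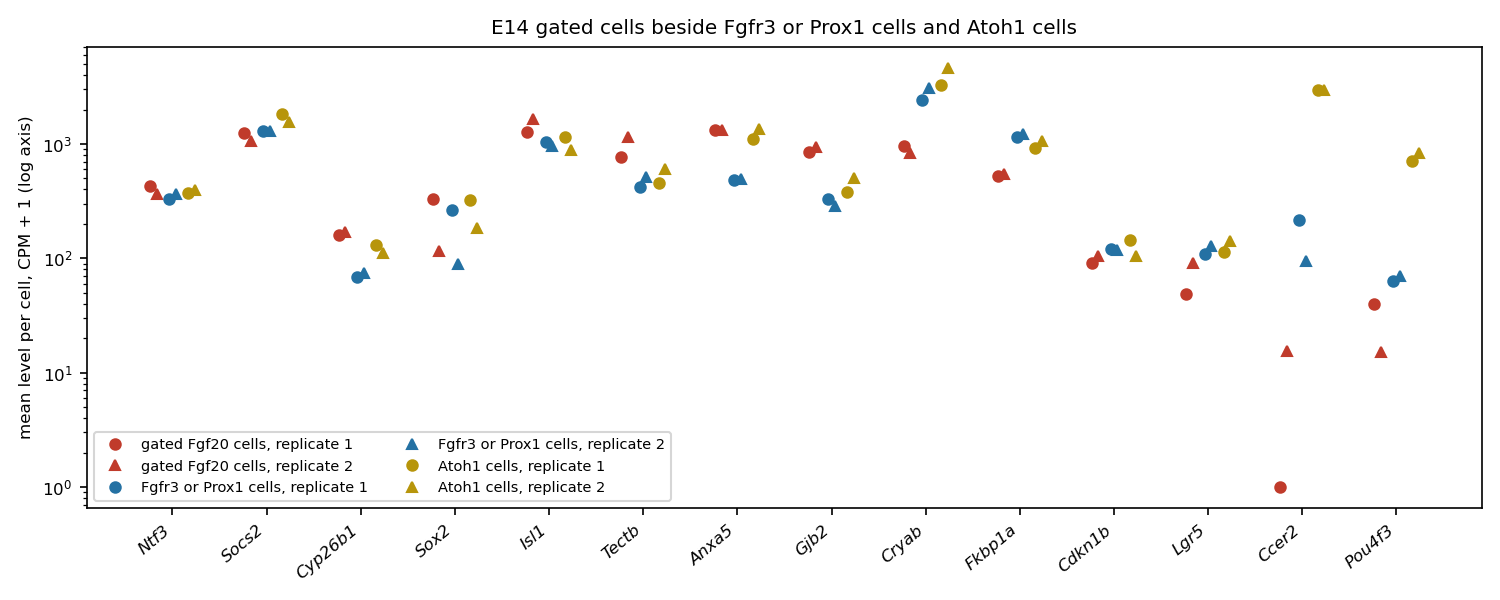
Mean levels (CPM + 1, log axis) of 14 named genes in the Fgf20-gated, Fgfr3/Prox1 and Atoh1 cells of each E14 library, 1 point per class and library. Socs2, Ntf3 and Sox2 lie close together in the 3 classes, whereas Anxa5 and Gjb2 lie lowest in the Fgfr3/Prox1 cells and Cryab lies lowest in the gated cells (961 and 838 CPM).

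No cell cycle gene passed against the Fgfr3/Prox1 cells in the reported fit. Of 28 G2/M genes 17 passed the filter on low values, some of them through the gated cells alone, so no count of calls over the list is given. Top2a, the mitotic topoisomerase gene, was at 61.4 and 81.0 CPM in the gated cells and at 14.1 and 11 CPM in the Fgfr3/Prox1 cells (log2 1.84, SE 0.76, adjusted p = 1). Summed over the list, G2/M genes came to 1636 and 1805 CPM in the gated cells, 1516 and 1825 CPM in the comparison cells, 571 and 716 CPM in the Fgfr3/Prox1 cells, and 460 and 589 CPM in the Atoh1 cells. As class means the gated cells thus lay near the comparison cells and above both other sensory classes in either library. The gated cells were not alike in this. Top2a was at 20.9 and 5.26 CPM in the 47 and 66 gated cells of the cluster that held most of them (cluster 3, described further on) and at 138 and 219.8 CPM in the 25 and 36 outside it. Cycle genes helped to define the clusters of these same cells, so that difference restates the clustering. The same cluster held 57 and 64 of the Fgfr3/Prox1 cells. S phase genes summed to 1068 and 1660 CPM against 857 and 752 CPM in the Fgfr3/Prox1 cells.

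Per-cell detection showed the same order. At 1500 UMIs, 26.4% (16.7 to 38.1) and 25.5% (17.4 to 35.1) of the gated cells held at least 1 UMI of 9 cycle genes, against 14.5% (7.45 to 24.4) and 8.64% (3.55 to 17.0) of the Fgfr3/Prox1 cells. The shares were 10.9% (4.11 to 22.2) and 3.28% (0.400 to 11.3) in the Atoh1 cells and 22.0% (20.2 to 23.9) and 25.8% (24.2 to 27.5) in the comparison cells. The intervals of the gated and the Fgfr3/Prox1 cells overlapped in replicate 1 and not in replicate 2. Without thinning the shares were 36.1% and 32.4% in the gated cells and 22.4% and 13.6% in the Fgfr3/Prox1 cells. Cdkn1b, the inhibitor that marks exit from the cycle, was caught at 1500 UMIs in 15.3% and 14.7% of gated cells, 18.4% and 16.0% of Fgfr3/Prox1 cells, 12.7% and 14.8% of Atoh1 cells, and 3.37% and 2.46% of comparison cells. The gated cells lay within a few percentage points of the other sensory classes for Cdkn1b and of the rest of the duct for cycle transcripts.

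**Figure D3:**
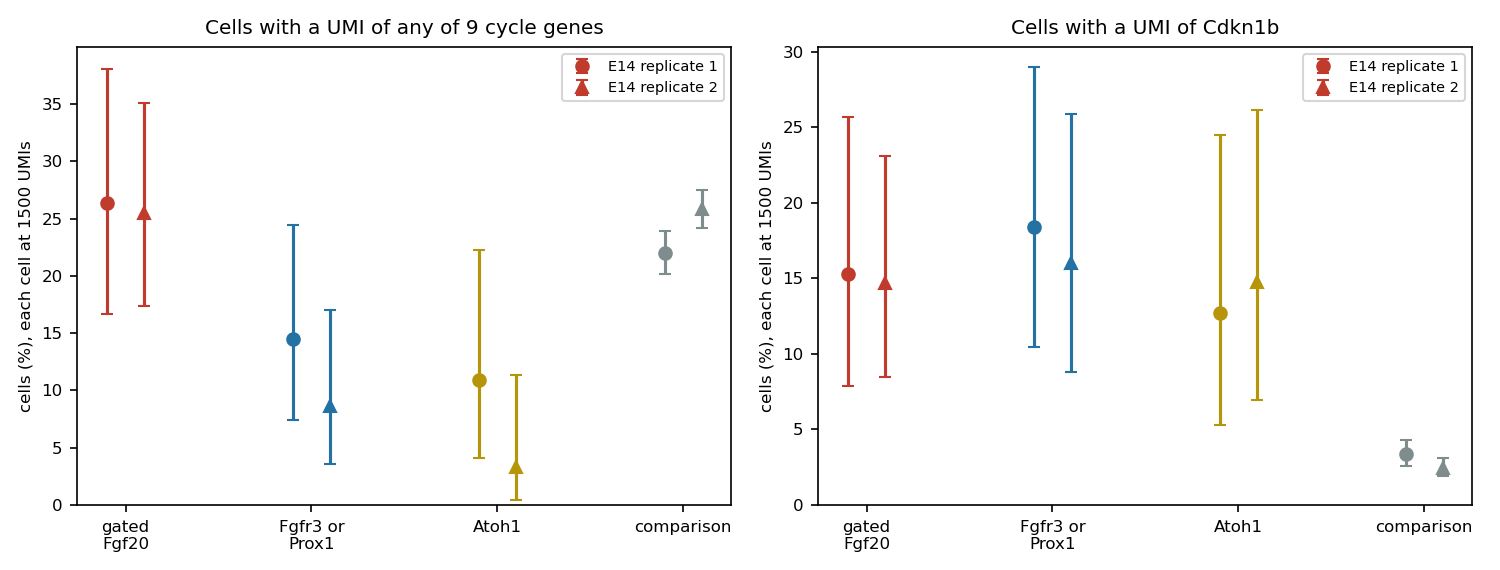
Share of cells (percent, from 0) holding a transcript of any of 9 cycle genes, and of Cdkn1b, after thinning each cell to 1500 UMIs, by class and E14 library with 95% exact binomial intervals. The Fgf20-gated cells lie near the comparison cells for cycle genes (26.4% and 25.5%) and near the other sensory classes for Cdkn1b (15.3% and 14.7%).

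Against the Atoh1 cells, 4 genes were higher (0.0445% of 8997 tested) and 24 lower (0.267%) in the gated cells, and 182 (2.02%) and 181 (2.01%) by weighted counts. The 24 include genes that passed the filter only through their level in the Atoh1 cells, among them Ccer2, Fgf8, Dlk2, Tmem255b and Rasd2. Clu, which encodes the secreted chaperone clusterin, was at 5032 and 4361 CPM in the gated cells and at 1580.3 and 643 CPM in the Atoh1 cells (log2 2.20, SE 0.24, adjusted p = 0.000578). Rgcc, a cell cycle regulator gene, was at 462 and 317 CPM against 143 and 39.3 CPM (log2 2.18, SE 0.40, adjusted p = 0.0417). Lum and Mia, lower than in the comparison cells, were higher than in the Atoh1 cells, which had 101 and 110.4 CPM of Lum (log2 1.95, adjusted p = 0.034) and 118 and 121 CPM of Mia (log2 1.55, adjusted p = 0.034). For these matrix genes the gated cells thus lay between the comparison cells and the Atoh1 cells in both libraries.

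Of the 19 genes of the hair cell list, 19 passed the filter on low values here and 11 in the comparison with the rest of the duct. Those that passed only through their level in the Atoh1 cells had to be lower in the gated cells, so no count over the list is given. Ccer2, a gene of early hair cells, was at 0 and 14.6 CPM in the gated cells against 2972 and 2945 CPM in the Atoh1 cells. Pou4f3, the hair cell transcription factor downstream of Atoh1, was at 39.2 and 14.2 CPM against 705 and 826 CPM (log2 -4.48, SE 0.57, adjusted p = 0.00255), and stood at 1.29 CPM in the comparison cells of both libraries. The gated cells' level came from few cells, since 1.39% and 4.90% of them held a Pou4f3 UMI without thinning. Fgf8, an FGF of inner hair cells, was at 0 and 0.83 CPM against 167 and 219.6 CPM. Dlk2, Tmem255b and Rasd2 were at most 6.82 CPM in either gated class and at least 142 CPM in the Atoh1 cells. Ccer2 and these 4 genes averaged under 10 CPM in the gated cells and are given as levels with no test, since the Atoh1 cells carried them past the filter. Pcp4, a calmodulin regulator gene of the hair cell list, was at 202 and 227 CPM in the gated cells, below the 1279 and 1956 CPM of the Atoh1 cells (log2 -2.83, SE 0.18, adjusted p = 3.34e-06) and above the 26.1 and 30.1 CPM of the comparison cells (log2 2.56, SE 0.46, adjusted p = 0.0592). Cryab was lower than in the Atoh1 cells too (3252 and 4621 CPM there, log2 -2.10, adjusted p = 2.51e-05). Tectb (452 and 604 CPM in the Atoh1 cells, log2 0.84, adjusted p = 0.211) and Socs2 (log2 -0.55) did not pass in the reported fit. Socs2 was lower by weighted counts. Without E16 replicate 1, 40 genes were higher and 64 lower, and without E16 replicate 2 they were 3 and 19. Without E14 replicate 1, E14 replicate 2 or E16 replicate 3 a single gene was higher and 7, 6 and 7 were lower. A total of 268 genes had p under 0.05 before adjustment, a share of those tested below 0.05 itself.

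The gated cells varied among themselves, and the following values are a description with no test. Cells with at least 1 UMI of the 9 cycle genes (26 and 33) had median UMIs of 5644 and 8030, against 3364 and 3413 in the others (46 and 69), so depth differed with the split. Cdkn1b stood at 64.1 and 15.7 CPM in the cycling cells and at 105 and 146 CPM in the others. Ntf3 stood at 187 and 245 CPM against 568 and 418 CPM, and S100a1 at 352 and 149 CPM against 789 and 863 CPM. Of the 10 genes higher than in the comparison cells, 9 were higher in the non-cycling cells of both libraries (29.2% of all 8918 genes were), with Anxa5 at 659 and 705 CPM against 1717 and 1635 CPM and Socs2 at 898 and 465 CPM against 1426 and 1356 CPM. Cyp26b1 hardly differed in replicate 1, at 162 and 139 CPM against 157 and 181 CPM. Nr2f1 was the exception, at 694 and 1059 CPM in the cycling cells against 649 and 700.4 CPM. Of the 9 genes lower than in the comparison cells, 6 were lower in the non-cycling cells of both libraries (26.5% of all genes were), among them Ptn at 461 and 666 CPM in the cycling cells against 271 and 193 CPM. Lgals1 was higher in the non-cycling cells of both libraries, and Meg3 and Tmsb4x differed between libraries.

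Cells with at least 2 Fgf20 UMIs (28 and 45) were of similar depth to those with 1 (44 and 57), with median UMIs of 3578 and 3803 against 3682 and 4139. Of the 10 higher genes 9 were higher still in these cells in both libraries (23.4% of all genes were), the exception being Nr2f1. Of the 9 lower genes 6 were lower still (28.4% of all genes were), the exceptions being Calml4, Lgals1 and Tmsb4x. The split used an Fgf20 value that the gate also used, and the limma fit restricted to the cells with at least 2 UMIs called 0 genes against the comparison cells. Sox2 stood at 421 and 167 CPM against 275 and 75.2 CPM, and Socs2 at 1558 and 1236 CPM against 1030.0 and 935 CPM. Mia stood at 196 and 203 CPM against 571 and 418 CPM, and Ptn at 188 and 236 CPM against 436 and 433 CPM. Top2a stood at 35.0 and 11.6 CPM against 78.2 and 136 CPM. The values of all 5 genes differed the same way in both libraries. Sox2 or Cdkn1b was caught, without thinning, in 49 of the 72 (68.1%) and 59 of the 102 (57.8%) gated cells, against 17.6% and 11.6% of comparison cells. The shares were 63.2% and 49.4% in the Fgfr3/Prox1 cells and 80% and 67.2% in the Atoh1 cells.

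The E14 cells were also clustered with the 6 gate genes left out, to see where the gated cells fell. This is a description, since the same cells were clustered. Cluster 3, led by Socs2, Tectb, Isl1, Ntf3 and S100a1, held 47 of the 72 gated cells (65.3%, 53.1 to 76.1) and 66 of the 102 (64.7%, 54.6 to 73.9), and 13.8% and 12.5% of all cells of those libraries. The same cluster held 57 of the 76 and 64 of the 81 Fgfr3/Prox1 cells and 33 of the 55 and 27 of the 61 Atoh1 cells. Cluster 7, led by the mitotic genes Ube2c, Cenpa and Cdc20, held 8 and 14 gated cells, and cluster 8, led by the S phase genes Pclaf and Rrm2, held 5 and 10. The small cluster 10, led by Matn4 and Gjb2, held 5 and 4 gated cells and 0 and 1 Fgfr3/Prox1 cells. Gated cells made up 17.9% and 7.69% of cluster 10 and 15.5% and 17.2% of cluster 3. In the Oc90-led and Ttr-led clusters 6 and 9 Fgf20 was at 0 CPM in both libraries. They could hold no gated cell, whatever the Oc90 limit. The gate removes cells holding Atoh1, which bears on the absence of gated cells from the hair-cell-like cluster 11. Marker levels differed between the gated cells inside and outside cluster 3, which those genes helped to define. Ntf3 was at 617 and 444 CPM inside it and at 80.5 and 212 CPM outside, Cdkn1b at 118 and 159 CPM against 38.2 and 2.61 CPM, and Cyp26b1 at 182 and 212 CPM against 114 and 84.9 CPM. Mia was at 143 and 132 CPM inside and at 955 and 673 CPM outside. Outside the cluster Ntf3 in replicate 1 and Cdkn1b in replicate 2 were no higher than in the comparison cells. At a finer resolution of 2, 43.1% and 49.0% of gated cells shared a cluster that held 16 and 18 Fgfr3/Prox1 cells, and another cluster held 39 and 38 Fgfr3/Prox1 cells and 2 and 3 gated cells. Among the 20 nearest neighbours of each gated cell, 22.0% on average were gated cells (3.31% of all cells were), 4.66% were Fgfr3/Prox1 cells (2.99% of all) and 7.59% were Atoh1 cells (2.21% of all).

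**Figure D4:**
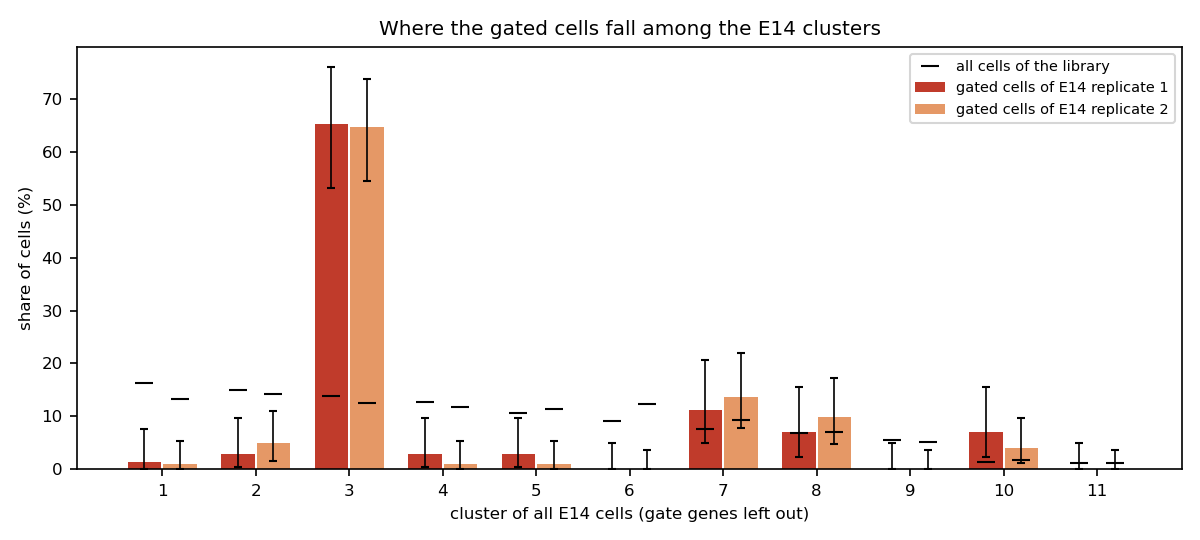
Share (percent, from 0) of the Fgf20-gated cells of each E14 library in each cluster, with the gate genes left out of the clustering and 95% exact binomial intervals, beside the share of all cells of that library (dashes). Cluster 3 holds 65.3% and 64.7% of them, against 13.8% and 12.5% of all cells, and clusters 6, 9 and 11 hold none. No Fgf20 was caught in clusters 6 and 9, and the gate leaves out the Atoh1 cells of cluster 11.

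The same gate at E16 took 9 (0.722%), 22 (0.782%) and 60 cells (1.54%) of the 3 libraries, 91 in all, at lower shares than at E14. Their Fgf20 levels were 925, 412 and 539 CPM. Of 8918 genes, 35 were higher (0.392%) and 28 lower (0.314%) than in the E16 comparison cells, and 80 (0.897%) and 115 (1.29%) by weighted counts. Without E16 replicate 3, 2 genes were higher and 0 lower, without E16 replicate 2 they were 7 and 10, and without E16 replicate 1 they were 72 and 70. Without E14 replicate 1 or 2, whose libraries shared the estimate of the spread, they were 41 and 58 or 39 and 56. Of the 10 genes higher at E14, 9 passed at E16 (90% of the E14 list and 25.7% of the E16 list), and all 10 were higher in each of the 3 libraries. Of the 9 lower genes, 5 passed again (55.6% and 17.9% of the lists), 8 had the same sign and 7 were lower in each library. On the log2(CPM + 10) scale 3112 of all 8918 genes were higher in the E16 gated cells, with a median difference of -0.24. Profiles of few cells hold many genes at 0. Of 28 G2/M genes, 21 were at 0 in the 9 gated cells of replicate 1 and 0 in its comparison cells. How far this bears on the shift was not tested. Before adjustment, 318 were higher and 894 lower at E16 with p under 0.05 by the limma test. Since the E14 and E16 libraries shared an estimate of the spread, the values and their signs are given beside the calls.

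Tectb stood at 1490.2, 931 and 1155 CPM in the E16 gated cells against 229, 185 and 139 CPM in the E16 comparison cells (log2 2.63, adjusted p = 5.68e-05). Sox2 stood at 378, 302 and 387 CPM against 79.3, 60.8 and 68.4 CPM (log2 2.20, adjusted p = 0.00818). Socs2 stood at 1448, 1366 and 995 CPM against 279, 202 and 203 CPM (log2 2.42, adjusted p = 4.4e-05). All 3 genes were separated in each library by more than the libraries differed. Ntf3 stood at 384, 578 and 241 CPM against 58.0, 80.3 and 67.4 CPM (log2 2.31, adjusted p = 0.0055). Anxa5 stood at 1632, 1218 and 2385 CPM against 327, 275 and 457 CPM (log2 2.25, adjusted p = 1.54e-05). Cyp26b1 missed the threshold at E16 too (log2 1.78, adjusted p = 0.0645), as did Nr2f1 (0.57, adjusted p = 0.161). Lfng and Calb1, which had not passed at E14, passed at E16, with Lfng higher by 2.60 (adjusted p = 0.00841) and Calb1 at -2.50 (adjusted p = 0.00797). Lfng may have passed the filter on low values only through the gated cells, so its call is no support. Lgals1 was the exception in direction, at 638, 740.3 and 910.2 CPM in the gated cells against 516, 439.9 and 677 CPM. No gene passed the test of the difference between E14 and E16 in the comparison with the rest of the duct, and 19 passed by weighted counts. Before adjustment 135 genes had p under 0.05 there, a share of those tested below 0.05 itself.

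**Figure D5:**
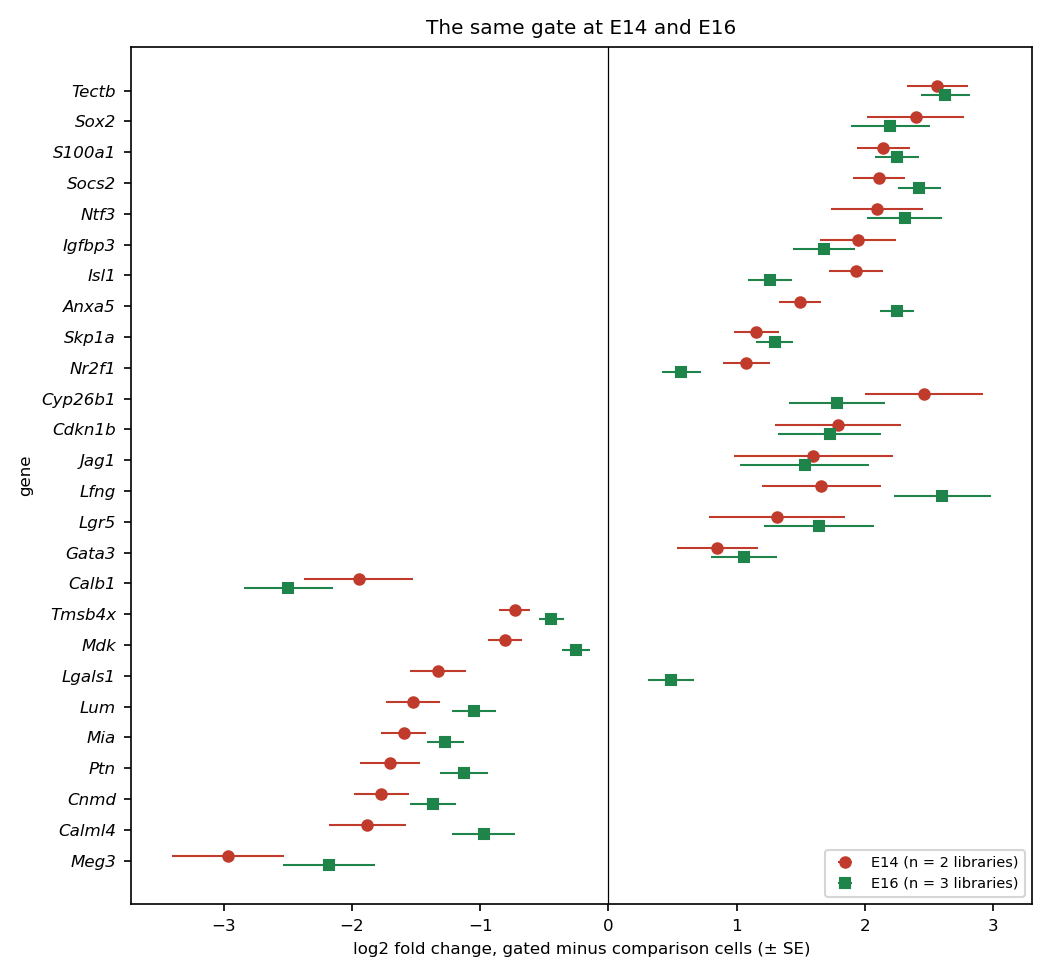
Log2 difference between Fgf20-gated and comparison cells at E14 and at E16 with bars of 1 SE, for the 19 genes that passed at E14 and 7 defining genes that did not (Cyp26b1, Cdkn1b, Jag1, Lfng, Lgr5, Gata3 and Calb1). All 10 genes higher at E14 are also above 0 at E16, and of the 9 lower genes Lgals1 alone crosses 0. Over all 8918 genes tested, 3112 were above 0 at E16 on this scale, where the gated profiles came from few cells.

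After birth the gate found few cells. At P1 it took 36, 17, 16 and 42 cells (0.961%, 0.780%, 0.635% and 0.750% of the libraries), and at P7 it took 15 and 7 (0.845% and 0.437%). The shares at P1 and P7 all lay below the 3.28% and 3.34% of E14 and overlapped the range of the E16 libraries. These cells were counted and not tested.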

How the data were processed

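Cells of the cochlear duct of wild-type CD1 mice had been captured with the 10x method and aligned to mm10 with Cell Ranger 2.1.1, and filtered and normalized in Seurat 2.0, per the submitters' processing notes and the study's methods. The deposited values are natural log values, which the authors made as the natural log of 1 plus 10000 times a gene's share of a cell's UMIs. UMIs were recovered from these values to within 2%, and each library held 3828400 to 23523800 of them, with at least about 1500 per cell. They served for thinning and for depth. No count model was fitted.

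Cells were assigned to classes by the gate in each library, and the mean CPM per class and library was taken. A limma fit (3.58.1, R 4.3.3) of log2(CPM + 10) with a mean trend and a block for library covered 10 profiles (2 E14 and 3 E16 libraries, 3 residual degrees of freedom) and every gene that averaged 10 CPM or more, apart from the 6 gate genes. Benjamini-Hochberg adjustment took in all genes of a fit, and 0.05 was the threshold. The block was used because the classes of a library came from the same pooled litter. Clusters came from scanpy 1.11.5 and leidenalg 0.10.2 (2000 variable genes, 30 components, 20 neighbours, resolution 1). No doublet caller was run, and leaving out cells above 3000 genes or 15000 UMIs gave 10 higher and 9 lower genes, of which Nr2f1 and Lgals1 were no longer part. The study's methods name these upper limits, yet the deposited E14 cells included some above them. Within the limits were 52 of the 72 and 72 of the 102 gated cells. Of the comparison cells, 1667 of 1928 and 2305 of 2759 were within them, a larger share. The script was tested on simulated data.

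Genes were named by a rule: the label's markers, the largest changes past the threshold in each comparison (up to 14 higher and 10 lower against the comparison cells, 8 each way against the Fgfr3/Prox1 cells and 6 each way against the Atoh1 cells), up to 4 genes past the threshold per list, and a set of defining genes whatever their change. Mitochondrial, ribosomal, haemoglobin and Gm-numbered genes were left out of naming. Genes named from a list by weighted counts, and Pcp4, Epyc, Hes1, Top2a, Etv4, Phlda1, Fgf10, Bdnf, Bmp2 and Ngfr with their values, and Tecta, were chosen after their values were seen. The gated cells and the gene lists were chosen with earlier results of these data known. Alternatives covered the pseudocount, the filter, the block, the gate, depth, cycling cells and leaving out each library.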

Additional observations from a re-analysis of the deposited data

Results flagged for a closer look

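The difference between the Fgf20-gated and the Atoh1 cells changed from E14 to E16 for 11 genes by the limma test of that change (610 had p under 0.05 before adjustment, and 273 passed by weighted counts), and 4 of them are described here. Anxa5 was at nearly the same level in both classes at E14 (log2 0.12) and higher in the gated cells at E16 (1.93), a change of 1.82 (SE 0.23, adjusted p = 0.00563). In the E16 Atoh1 cells it stood at 331, 370.3 and 656 CPM, against 1632, 1218 and 2385 CPM in the gated cells. Cryab moved from -2.10 to -0.29, a change of 1.81 (SE 0.22, adjusted p = 0.00386). Gjb2 moved from 1.01 to 3.22, a change of 2.21 (SE 0.34, adjusted p = 0.0182). Socs2 moved from -0.55 to 1.48, a change of 2.02 (SE 0.32, adjusted p = 0.0182), and its level in the Atoh1 cells was 1811 and 1564 CPM at E14 and 332, 449 and 586 CPM at E16. The E14 levels of Anxa5 and Socs2 in the gated cells lay within their E16 ranges (1218 to 2385 CPM for Anxa5 and 995 to 1448 CPM for Socs2), while those of the Atoh1 cells were lower in every E16 library than in either E14 library. How far the makeup of the Atoh1 class at each age bears on these changes was not tested.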

How the results depend on the processing

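The number of genes past the threshold depended on the settings, and the cause was not tested. Against the comparison cells (19 genes), 5 passed with a pseudocount of 1 CPM, 0 with no filter on low values, 56 on mean natural log values, 619 with each age fitted alone, 0 with at least 2 Fgf20 UMIs, 94 in cells of 2000 to 6000 UMIs (a setting that also drops E16 replicate 1, which keeps 4 gated cells there, under the minimum of 5) and 678 with library weights (634 without E16 replicate 1), and leaving out a library gave 0 to 117. Against the Fgfr3/Prox1 cells (4 genes), 2 passed with a pseudocount of 1 or of 50, 0 with no filter, 8 on mean natural log values, 151 with each age alone, 0 with at least 2 Fgf20 UMIs, 19 in that UMI range and 154 with weights (143 without E16 replicate 1), and leaving out a library gave 1 to 34. Against the Atoh1 cells (28 genes), 5 passed with a pseudocount of 1, 6 with no filter, 18 on summed UMIs, 392 with each age alone, 4 with at least 2 Fgf20 UMIs, 104 in that UMI range, 16 without cycling cells and 363 with weights (305), and leaving out a library gave 7 to 104. At E16 (63 genes) the counts were 8 with a pseudocount of 1, 1 with no filter, 106 with each age alone, 7 with at least 2 Fgf20 UMIs, 181 in that UMI range and 195 with weights (124), and 2 to 142 without a library. The change between ages against the comparison cells (0 genes) gave 1 with matched gate limits, 1 in that UMI range, 1 without cells of many genes or UMIs, 19 with weights (9) and 0 to 2 without a library. Without the replicate block that pairs the classes of a library, 8, 1, 18 and 54 genes passed in the 4 comparisons in this order.

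Of 1672 values of named genes under an alternative, 1255 kept their direction and their side of the threshold, 290 fell short of it, 101 newly passed and 26 changed sign, none of the 26 past the threshold. None of these 26 were among the 494 values each against the comparison cells at E14 and at E16. Against the Fgfr3/Prox1 cells, Calb1 turned to -0.25 on summed UMIs, -0.024 on mean natural log values, -1.65 with at least 2 Fgf20 UMIs, -0.58 without cycling cells and -0.15 without E14 replicate 1 (0.42 without E14 replicate 2), Cdkn1b to 0.071 with at least 2 Fgf20 UMIs and 0.12 in that UMI range, Socs2 to 0.10 with at least 2 Fgf20 UMIs and 0.092 without cycling cells, and Ntf3 to -0.0076 without E14 replicate 1 (0.38 without E14 replicate 2). Against the Atoh1 cells, Ntf3 turned to -0.078 on summed UMIs, -0.055 on mean natural log values and -0.13 without E14 replicate 1 (0.19 without E14 replicate 2), Calb1 to -0.73, Cdkn1b to 0.028, Gata3 to 0.0051, Lfng to 0.24 and Sox2 to 0.13 with at least 2 Fgf20 UMIs, Cdkn1b to 0.35 and Lfng to 0.28 in that UMI range, Lfng to 0.21 without cells of many genes or UMIs, Gata3 to 0.085 and Lfng to 0.073 without cycling cells, Cdkn1b and Lfng to 0.011 without E14 replicate 1 (-0.60 and -0.34 without E14 replicate 2), and Sox2 to 0.033 without E14 replicate 2 (-0.61 without E14 replicate 1).

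At resolution 2 the leading cluster held 43.1% and 49.0% of gated cells in place of 65.3% and 64.7%. At 2500 UMIs Socs2 was caught in 79.0% and 79.2% of gated cells, Tectb in 59.7% of replicate 1, and Sox2 and Cdkn1b in 22.2% and 27.8% of replicate 2, over the cells deep enough. With 72 and 102 gated cells, most holding 1 Fgf20 UMI, genes averaging under 10 CPM were not tested.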
